A study of Arabidopsis thaliana with 16 samples.

Results

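The iron uptake genes are 10 *Arabidopsis thaliana* genes that serve the capture of iron from soil. They were chosen by name from the known pathway, at a time when earlier results of these data were known. They are *FIT* (AT2G28160), *bHLH38* (AT3G56970), *bHLH39* (AT3G56980), *bHLH100* (AT2G41240), *bHLH101* (AT5G04150), *BTS* (AT3G18290), *AHA2* (AT4G30190), *FRO2* (AT1G01580), *IRT1* (AT4G19690) and *F6'H1* (AT3G13610). All 10 were found among the 31133 loci used. Of these rows 8 hold 1 gene. The row of *IRT1* also holds its neighbour *IRT2*, and the row of *BTS* also holds AT3G18270, so the values of both are those of the joined loci. Some members share a locus with genes that have rows of their own. These are *bHLH101* with AT5G04140, *F6'H1* with AT3G13620, and *BTS* with AT3G18280 and AT3G18282.

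The 8 groups were *cbp20* and Col-0 seedlings, grown in the dark for 3 days and then kept for 4 h in ethylene (10 ppm in hydrocarbon-free air) or in hydrocarbon-free air alone, with roots and shoots taken separately. *cbp20* is a Col-0 line mutated in CBP20, which with CBP80 binds the cap of RNA in the nucleus, and Col-0 is the wild type. Each group had 2 RNA-seq libraries, 16 in all. The study set ethylene against air in each tissue and genotype to ask which genes respond to the hormone and which need *CBP20* to do so.

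The tables give 1 FPKM value per group, made by the authors from its 2 libraries. FPKM counts fragments relative to transcript length and to all mapped fragments, so levels of different genes can be set side by side. No SD and no p-value can be had from these values, and whether a difference is larger than the spread between the 2 libraries of a group cannot be told from them. The sources used here do not state the reads per library, and the depth is therefore unknown. "Higher" and "lower" below describe the group values only. A gene was counted as apart between ethylene and air when it had at least 1 FPKM in either gas and differed by at least 1.5-fold, and the share of all loci that passed the same rule is printed as the background. Roots and shoots, and *cbp20* and Col-0, stand in tables that were normalized separately, so those levels are a description.

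Arabidopsis takes up iron by reduction. A proton pump acidifies the soil at the root surface, secreted coumarins help to dissolve ferric iron, a reductase turns ferric into ferrous iron, and a transporter carries the ferrous ion into the epidermal cell. The transcription factor FIT, paired with a bHLH protein of subgroup Ib, turns on the reductase and transporter genes when iron is short, and the E3 ligase BTS restrains the response. Ethylene is known as a promoter of this response in Arabidopsis roots, where the ethylene transcription factors EIN3 and EIL1 bind FIT.

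The group values went with the genotype and tissue of the labels. Single libraries could not be checked, because each value stands for 2 libraries. *CBP20* (AT5G44200) had 0.509 FPKM in ethylene and 0.654 FPKM in air in *cbp20* roots, against 23.8 and 28.6 FPKM in Col-0 roots, and 0.991 and 2.14 FPKM in *cbp20* shoots, against 31.0 and 35.8 FPKM in Col-0 shoots. Each of 6 root markers was higher in every root group than in every shoot group, among them the Casparian strip gene *CASP1* with 638 to 1063 FPKM in roots and 183 to 276 FPKM in shoots. Each of 6 shoot markers, among them *LHCB1.3*, *RBCS1A* and *PORA*, was lower in every root group than in every shoot group, and none of the markers of either list was at 0. All root libraries were run on lane 6, and each shoot group had 1 library on lane 5 and 1 on lane 6.

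In RefSeq coordinates (TAIR10.1) the genes lie on all 5 chromosomes. *FRO2* spans chr1:208995-213082, *FIT* chr2:12004658-12006276 and *bHLH100* chr2:17198037-17199454. On chromosome 3 lie *F6'H1* (chr3:4449259-4450811), *BTS* (chr3:6273966-6280562), *bHLH38* (chr3:21084035-21085245) and *bHLH39* (chr3:21086390-21087710). *IRT1* spans chr4:10707344-10709015, *AHA2* chr4:14770395-14776247 and *bHLH101* chr5:1138410-1139633. All are protein-coding genes.

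*bHLH38*, *bHLH39*, *bHLH100* and *BTS* are shown by the stretch upstream of them. The bHLH genes among them are close relatives that stood at different levels. *BTS* was added because its promoter holds a word also found in those of *bHLH38* and *bHLH100*. The windows of the other regulators, *FIT* and *bHLH101*, are not printed. *bHLH38* and *bHLH39* are neighbours on the minus strand of chromosome 3 with 1144 bases between them. The 250 bases before the RefSeq gene start (TAIR10.1) are printed 5′ to 3′, with every CANNTG word (the E-box, to which bHLH proteins bind) in capitals. CACGTG, the G-box, is 1 form of it.
bHLH38, chr3:21085246-21085495 (minus strand): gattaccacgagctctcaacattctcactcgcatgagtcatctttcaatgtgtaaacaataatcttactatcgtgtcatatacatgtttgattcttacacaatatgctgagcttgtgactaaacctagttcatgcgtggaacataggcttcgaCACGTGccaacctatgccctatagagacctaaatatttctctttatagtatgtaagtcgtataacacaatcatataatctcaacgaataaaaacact
bHLH39, chr3:21087711-21087960 (minus strand): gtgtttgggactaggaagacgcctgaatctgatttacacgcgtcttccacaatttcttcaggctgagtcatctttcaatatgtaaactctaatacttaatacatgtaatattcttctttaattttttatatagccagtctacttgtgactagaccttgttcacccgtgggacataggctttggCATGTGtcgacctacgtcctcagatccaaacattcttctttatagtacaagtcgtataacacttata
bHLH100, chr2:17199455-17199704 (minus strand): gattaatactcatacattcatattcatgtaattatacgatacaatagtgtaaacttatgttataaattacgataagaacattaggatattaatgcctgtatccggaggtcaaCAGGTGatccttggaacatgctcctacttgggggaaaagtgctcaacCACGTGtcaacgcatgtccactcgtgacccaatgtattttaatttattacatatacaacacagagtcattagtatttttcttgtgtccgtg
BTS, chr3:6273716-6273965 (plus strand): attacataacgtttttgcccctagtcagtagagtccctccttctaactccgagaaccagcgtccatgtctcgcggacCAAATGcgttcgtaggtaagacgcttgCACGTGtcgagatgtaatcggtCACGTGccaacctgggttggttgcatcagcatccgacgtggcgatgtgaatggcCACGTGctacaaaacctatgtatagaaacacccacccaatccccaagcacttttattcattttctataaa
The G-box was found in 3 of the 10 promoters, those of *bHLH38*, *bHLH100* and *BTS*, and in 6.49% of 27443 protein-coding genes with a window of the same length. It began 97 bases before the start of *bHLH38*, 91 before that of *bHLH100* and 146, 124 and 70 before that of *BTS*. *bHLH39* had the word CATGTG, 67 bases before its start. The windows of *bHLH38* and *bHLH39* had 164 of 250 bases in common after alignment, the highest number among 45 pairs of members. The next pair, *FIT* and *F6'H1*, had 143. Any CANNTG word was found in 6 of the 10 promoters and in 55.3% of all. The window of *bHLH101* had no CANNTG word and no ATGTA, and that of *FIT* had CAAATG as its only CANNTG word. ATGTA, the core of the site of EIN3, was found on either strand in 7 of the 10 and in 52.0% of all, and the GCC box GCCGCC, the site of ethylene response factors, in 0 of the 10 and in 1.87% of all. Both strands were searched, every G-box is also counted as an E-box, and a match is a description of the letters.

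**Figure D1:**
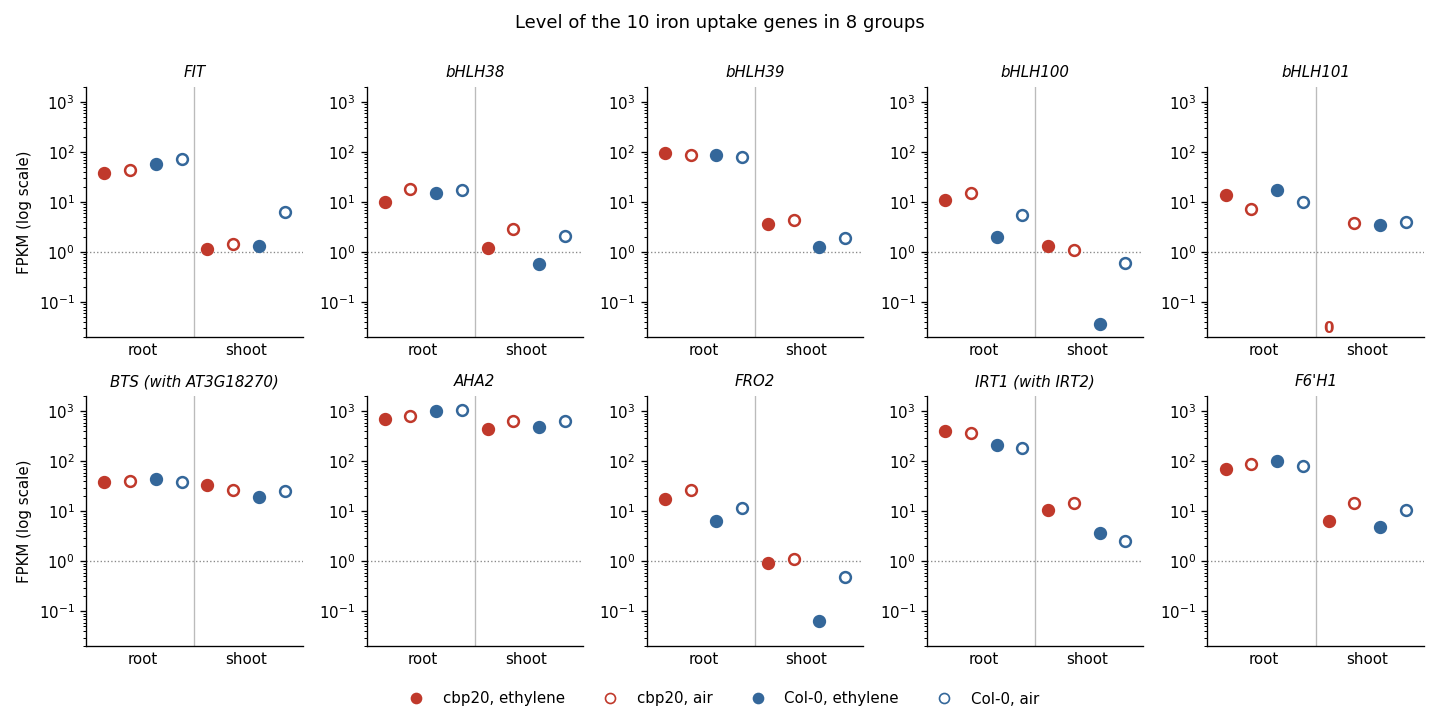
Level of each iron uptake gene in FPKM on a log axis, with 1 point per group (filled, ethylene; open, air; red, *cbp20*; blue, Col-0), the authors' value from 2 libraries, roots left of shoots, a dotted line at 1 FPKM and the digit 0 for a value listed at 0. *AHA2* and *BTS* had levels of the same order in both tissues, and *FRO2*, *IRT1* and *FIT* were more than 10-fold higher in roots than in shoots in every pair of groups.

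Most of these genes had much higher levels in roots than in shoots. Of the 9 members above 0 in all 8 groups, 7 were at least 2-fold higher in roots than in shoots in all 4 pairs of the same genotype and gas, against 9.47% of 17210 loci. These were *FIT*, *bHLH38*, *bHLH39*, *bHLH100*, *FRO2*, *IRT1* and *F6'H1*. The root over shoot ratio was 25.1 to 75.1 for the *IRT1* row, 19.1 to 98.5 for *FRO2*, 19.8 to 69.8 for *bHLH39*, 11.8 to 44.6 for *FIT* and 6.09 to 21.0 for *F6'H1*. It was 6.48 to 26.8 for *bHLH38* and 8.28 to 55.5 for *bHLH100*. The highest ratios of *FRO2* and *bHLH100* rest on shoot values of 0.0656 and 0.0352 FPKM, which are too low to fix a ratio. A locus entered the count with at least 1 FPKM in any group. *FRO2* and *bHLH100* in Col-0 shoots, and *bHLH38* there in ethylene (0.572 FPKM), were under 1 FPKM and entered through other groups. The *IRT1* row, *bHLH39*, *FIT* and *F6'H1* had at least 1 FPKM in every group. *AHA2* and *BTS* were the members with levels of the same order in both tissues, at 1.27 to 2.09 times and 1.17 to 2.27 times the shoot level. *bHLH101* lay between, at 1.87 to 5.07 times in the 3 pairs with a ratio. The markers of the root epidermis and root hair, the layer that takes up iron, summed to 112 to 264 FPKM in roots and 14.4 to 22.2 FPKM in shoots, and 3 of its 5 genes (*LRX1*, *EXPA7* and *COBL9*) were higher in every root group than in every shoot group, whereas *WER* and *GL2* overlapped between tissues. More cells of a type and more RNA per cell cannot be told apart in such bulk samples, and tissue, lane and table differ together in part.

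*AHA2*, the plasma membrane proton pump, had the highest level of the 10 genes in all 8 groups. Its level was 722 FPKM in ethylene and 814 FPKM in air in *cbp20* roots, and 1021 and 1065 FPKM in Col-0 roots. In shoots it was 452 FPKM in ethylene and 641 FPKM in air in *cbp20*, and 488 and 641 FPKM in Col-0. The ethylene value was below the air value in all 4 tables, with log2 ratios of -0.17 and -0.06 in *cbp20* and Col-0 roots and -0.50 and -0.39 in *cbp20* and Col-0 shoots, each within 1.5-fold.

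The joined row of *IRT1*, the ferrous iron transporter, and *IRT2* was next in roots. It had 407 FPKM in ethylene and 370 FPKM in air in *cbp20* roots, and 216 and 190 FPKM in Col-0 roots. Gas made little difference there (log2 ratios of 0.14 and 0.19), and the *cbp20* roots stood above the Col-0 roots in both gases. In shoots the row had 10.7 FPKM in ethylene and 14.7 FPKM in air in *cbp20*, and 3.72 and 2.53 FPKM in Col-0. The shoot log2 ratios had opposite signs, -0.46 in *cbp20* and 0.56 in Col-0. The genes lie 2505 bases apart on chromosome 4, and the values do not part *IRT1* from *IRT2*.

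*FRO2*, the ferric chelate reductase that supplies IRT1 with ferrous iron, was lower in ethylene in the roots of both genotypes. It had 17.6 FPKM in ethylene and 26.7 FPKM in air in *cbp20* roots (log2 ratio -0.60), and 6.46 and 11.5 FPKM in Col-0 roots (log2 ratio -0.83). The *cbp20* ratio was just past the threshold, at 1.52-fold. In shoots *FRO2* was low, with 0.919 FPKM in ethylene and 1.11 FPKM in air in *cbp20* and 0.0656 and 0.491 FPKM in Col-0. The *IRT1* row was 23.1 times *FRO2* in ethylene and 13.9 times in air in *cbp20* roots, and 33.4 and 16.6 times in Col-0 roots, so that this ratio was higher in ethylene in both genotypes.

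*F6'H1* encodes feruloyl-CoA 6'-hydroxylase, which makes the precursor of the coumarin scopoletin. It had 71.3 FPKM in ethylene and 88.7 FPKM in air in *cbp20* roots, and 101 and 81.5 FPKM in Col-0 roots. The log2 ratios there were -0.31 in *cbp20* and 0.31 in Col-0, within 1.5-fold and of opposite sign. In shoots it had 6.30 FPKM in ethylene and 14.6 FPKM in air in *cbp20* (log2 ratio -1.21), and 4.82 and 10.6 FPKM in Col-0 (log2 ratio -1.14). The shoot values in ethylene were thus lower than those in air by more than 2-fold in both genotypes.

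*FIT*, the bHLH factor at the head of the root response, had 38.5 FPKM in ethylene and 43.1 FPKM in air in *cbp20* roots, and 57.7 and 73.1 FPKM in Col-0 roots. Ethylene values were below air values in both genotypes, within 1.5-fold (log2 ratios of -0.17 and -0.34). In shoots *FIT* had 1.16 FPKM in ethylene and 1.41 FPKM in air in *cbp20*, and 1.29 and 6.20 FPKM in Col-0. The Col-0 shoot in air stood apart from the other 3 shoot groups, and the log2 ratio of Col-0 shoots was -2.26 where that of *cbp20* shoots was -0.29.

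Among the 4 subgroup Ib genes, whose products pair with FIT, *bHLH39* was the main transcript of the root. It had 94.98 FPKM in ethylene and 86.4 FPKM in air in *cbp20* roots, and 87.6 and 77.6 FPKM in Col-0 roots. It made up 73.5% and 68.3% of the summed FPKM of the 4 genes in ethylene and air in *cbp20* roots, and 71.6% and 70.2% in Col-0 roots. The sum itself was 129 FPKM in ethylene and 127 FPKM in air in *cbp20* roots, and 122 and 111 FPKM in Col-0 roots, with log2 ratios of 0.03 and 0.14 between the gases. In shoots *bHLH39* had 3.61 FPKM in ethylene and 4.37 FPKM in air in *cbp20*, and 1.26 and 1.86 FPKM in Col-0, and the sum of the 4 genes was 5.29 to 12.1 FPKM over the shoot groups.

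The other 3 genes of the subgroup differed from *bHLH39* and from each other in how they stood in ethylene. *bHLH38* had 9.78 FPKM in ethylene and 18.3 FPKM in air in *cbp20* roots (log2 ratio -0.90), and 15.4 and 17.6 FPKM in Col-0 roots (log2 ratio -0.19). In shoots it had 1.19 FPKM in ethylene and 2.82 FPKM in air in *cbp20* (log2 ratio -1.24), and 0.572 and 2.04 FPKM in Col-0 (log2 ratio -1.84). The ethylene value of *bHLH38* was thus the lower one in all 4 tables, while its neighbour *bHLH39* was slightly higher in ethylene in roots and lower in shoots. In *cbp20* roots the level of *bHLH39* was 9.71 times that of *bHLH38* in ethylene and 4.73 times in air, and in Col-0 roots 5.70 and 4.42 times.

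*bHLH100* had 11.0 FPKM in ethylene and 14.8 FPKM in air in *cbp20* roots (log2 ratio -0.43), and 1.95 and 5.43 FPKM in Col-0 roots (log2 ratio -1.47). It was the gene of the subgroup whose root level differed most between the genotypes. In shoots it had 1.32 FPKM in ethylene and 1.10 FPKM in air in *cbp20*, and 0.0352 and 0.592 FPKM in Col-0, under the minimum of 1 FPKM in both gases. *bHLH101* was the only member higher in ethylene by at least 1.5-fold in any table. It had 13.6 FPKM in ethylene and 7.06 FPKM in air in *cbp20* roots (log2 ratio 0.94), and 17.3 and 9.95 FPKM in Col-0 roots (log2 ratio 0.80). In shoots *bHLH101* was listed at 0 in ethylene and had 3.78 FPKM in air in *cbp20*, and it had 3.42 and 4.01 FPKM in Col-0. A listed 0 can be a failed estimate, so no ratio is given. AT5G04140, in the same locus as *bHLH101*, had 2.82 FPKM in ethylene and 1.12 FPKM in air in *cbp20* roots. In Col-0 roots AT5G04140 had 2.44 and 0.648 FPKM. Its shoot values were 79.9 and 79.5 FPKM in *cbp20*, and 154 and 75.2 FPKM in Col-0. How reads were divided between AT5G04140 and *bHLH101* was not examined.

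**Figure D2:**
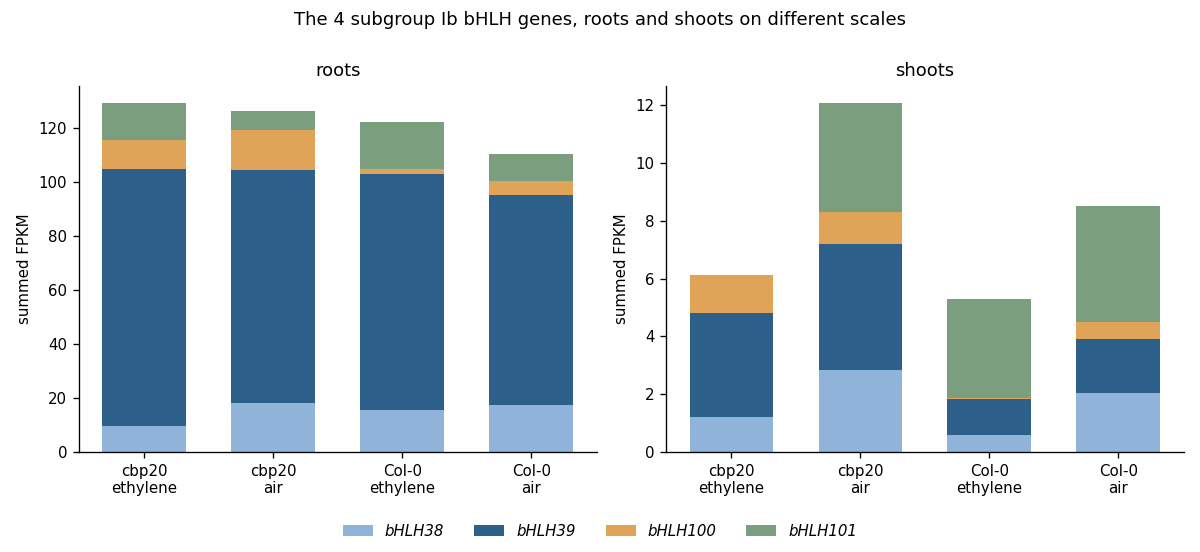
Stacked bars of the FPKM of *bHLH38*, *bHLH39*, *bHLH100* and *bHLH101* in each group, with *cbp20* left of Col-0 and ethylene left of air, and with different scales for roots (left) and shoots (right). *bHLH39* made up 68.3% to 73.5% of each root bar, and the segment of *bHLH101* was taller in ethylene than in air in the roots of both genotypes.

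The coding sequences of *bHLH38* and *bHLH39* were 85.1% identical over their aligned bases, those of *bHLH39* and *bHLH100* 78.3% and those of *bHLH38* and *bHLH100* 76.5%, while *bHLH101* shared 64.8% to 66.4% with the other three. The longest run of identical bases between 2 of their transcripts was 34 bases, between *bHLH38* and *bHLH39*, so a longer read differs between them in at least 1 base. How the aligner treated reads with mismatches was not examined, and the split between these genes is uncertain to that extent.

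*BTS*, which encodes an E3 ubiquitin ligase that acts on bHLH regulators of the iron response, differed little between the genotypes in roots. Its joined row had 39.2 FPKM in ethylene and 39.8 FPKM in air in *cbp20* roots, and 44.5 and 39.2 FPKM in Col-0 roots. In shoots it had 33.5 FPKM in ethylene and 26.7 FPKM in air in *cbp20*, and 19.6 and 25.4 FPKM in Col-0. All 4 ratios were within 1.5-fold, with opposite signs in the shoots (log2 ratios of 0.33 in *cbp20* and -0.37 in Col-0).

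Counted over the 10 genes, ethylene against air gave few that were apart in roots. In *cbp20* roots *bHLH38* and *FRO2* were lower and *bHLH101* was higher, 2 and 1 of 10, against 14.5% and 13.2% of 17298 loci. In Col-0 roots *bHLH100* and *FRO2* were lower and *bHLH101* was higher, 2 and 1 of 10, against 15.0% and 15.2% of 17265 loci. The members' shares lay near the background in both. The same direction in both genotypes by at least 1.5-fold was shown by *FRO2*, lower, and *bHLH101*, higher, 1 of 10 each, against 6.81% and 6.44% of 16671 loci. The median log2 ratio of the 10 genes was -0.17 in *cbp20* roots and 0.06 in Col-0 roots, where the median of all loci was 0.02 and 0.00.

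The root groups also differed in markers of the epidermis, the layer that takes up iron. The 5 markers of root epidermis and root hair summed to 264 FPKM in ethylene and 118 FPKM in air in *cbp20* roots, and to 253 and 112 FPKM in Col-0 roots. Of these *LRX1*, *EXPA7* and *COBL9*, 3 of 5, were at least 1.5-fold higher in ethylene in both genotypes, while *WER* and *GL2* had lower values in ethylene (log2 ratios of -0.54 and -0.23 in *cbp20* and -1.41 and -0.30 in Col-0). None of the 5 was at 0. The part of these differences in the values of the iron uptake genes was not tested.

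In shoots few members were apart, all of them lower in ethylene, which was also the more frequent direction over all loci. In *cbp20* shoots *bHLH38* and *F6'H1* were lower and none was higher, 2 and 0 of 9 members at or above the minimum, against 20.6% and 15.0% of 17270 loci. In Col-0 shoots *FIT*, *bHLH38* and *F6'H1* were lower and none was higher, 3 and 0 of 8, against 20.6% and 15.0% of 17409 loci. *bHLH38* and *F6'H1* were lower in both genotypes, 2 of the 7 members at or above the minimum in both, against 11.1% of 16671 loci, and 0 of 7 were higher in both, against 5.85%. In Col-0 shoots *bHLH38* had 0.572 FPKM in ethylene, so it met the minimum of 1 FPKM there only through its air value. The background was larger at low levels. Of loci with a mean below 3 FPKM, where *bHLH38* stood, 37.3% were lower in each genotype. Of those from 3 to 10 FPKM, where *FIT* and *F6'H1* stood in Col-0, 23.9% were lower in Col-0 shoots. *F6'H1* in *cbp20* stood between 10 and 30 FPKM, where 16.1% were lower. The share of members in *cbp20* lay near the background. The members are few, and nothing about them is read from the shoot counts. The median log2 ratio was -0.29 over the 9 genes in *cbp20* shoots and -0.48 over the 8 genes in Col-0 shoots, where the median of all loci was 0.00 and -0.01.

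**Figure D3:**
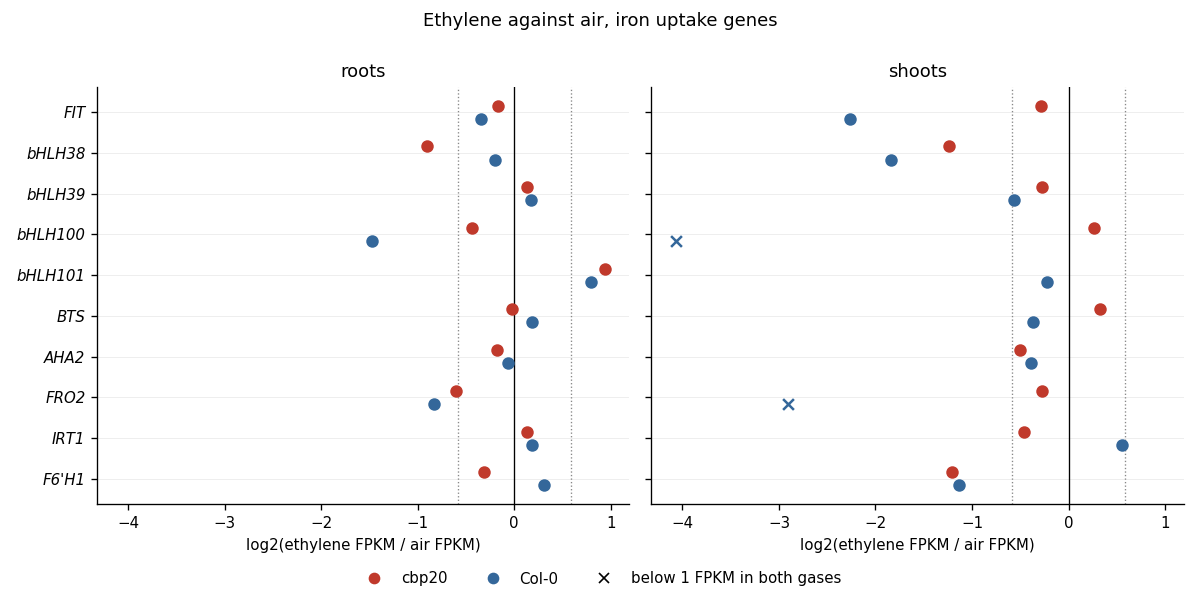
Log2 ratio of ethylene FPKM to air FPKM for each gene in roots (left) and shoots (right), red for *cbp20* and blue for Col-0, with dotted lines at 1.5-fold and a cross where both gases were below 1 FPKM. *bHLH101* lay right of the upper line in both root tables (0.94 and 0.80), and *bHLH38* and *F6'H1* lay left of the lower line in both shoot tables.

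The responses of *cbp20* and Col-0 were then set against each other, by the difference of their log2 ratios, without a test. In roots 3 of 10 members differed by at least 1.5-fold, where 24.9% of 16671 loci did so. The difference, *cbp20* minus Col-0, was -0.71 for *bHLH38*, 1.04 for *bHLH100* and -0.62 for *F6'H1*. In shoots 4 of 7 did so, where 31.5% of loci did. The difference was 1.97 for *FIT*, 0.60 for *bHLH38*, 0.70 for *BTS* and -1.02 for the *IRT1* row. *FIT*, *bHLH38* and, in Col-0, the *IRT1* row had low shoot values. At low levels more loci were past 1.5-fold between ethylene and air. The difference of *FIT* rests on its Col-0 shoot value in air, 6.20 FPKM, and *bHLH38* had 0.572 FPKM in ethylene in Col-0 shoots. Nothing is read from the shoot count. Among the 10 root genes 8 had the same sign in both genotypes (5 lower and 3 higher in ethylene), as had 68.7% of all loci. In shoots 5 of 7 had the same sign, all 5 lower, as had 68.5% of all loci.

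The reductase gene, the transporter row and 1 regulator had higher values in *cbp20* than in Col-0. *FRO2* was 2.72-fold higher in *cbp20* roots than in Col-0 roots in ethylene and 2.33-fold in air, the *IRT1* row was 1.88-fold and 1.95-fold higher, and *bHLH100* was 5.61-fold and 2.73-fold higher. These 3 of 10 members were higher by at least 1.5-fold in both gases, against 7.39% of 17535 loci, and 0 of 10 were lower in both, against 4.84%. The values in ethylene and in air come from different libraries. *FIT* stood the other way, at 0.667 times the Col-0 root level in ethylene and 0.590 times in air, just short of 1.5-fold in ethylene. *AHA2* was at 0.707 and 0.764 times and *bHLH101* at 0.783 and 0.710 times the Col-0 level. *bHLH39*, at 1.08 and 1.11 times, and *BTS*, at 0.881 and 1.02 times, were close to the Col-0 level. The remaining members, *bHLH38* and *F6'H1*, were below Col-0 in ethylene (0.637 and 0.707 times) and near it in air (1.04 and 1.09 times).

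In shoots *FRO2*, the *IRT1* row and *bHLH100* were again higher in *cbp20*, together with *bHLH39*. The *IRT1* row was 2.88-fold higher in ethylene and 5.83-fold in air, and *bHLH39* 2.88-fold and 2.36-fold. Both had at least 1 FPKM in all 4 shoot groups. *FRO2* and *bHLH100* were 2.27-fold and 1.86-fold higher in air, and their Col-0 shoot values in ethylene, under 0.1 FPKM, were too low to fix a ratio. Either gene reached 1 FPKM only in *cbp20* shoots, where it was the higher. By the rule of 1.5-fold in both gases 4 of the 9 members with a ratio counted as higher, 2 of them (*FRO2* and *bHLH100*) through those low values, and nothing is read from that count. Of 17453 loci 5.93% counted as higher and 6.82% as lower, and 0 of 9 members were lower in both gases. *FIT* was at 0.897 times the Col-0 shoot level in ethylene and 0.228 times in air. Over all loci the median log2 ratio of *cbp20* to Col-0 was 0.06 in ethylene and 0.04 in air in roots, and -0.02 and -0.03 in shoots.

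The sums of the marker lists differed between the genotypes too. The 6 shoot markers summed to 512 FPKM in ethylene and 400 FPKM in air in *cbp20* roots, and to 113 and 187 FPKM in Col-0 roots, beside 12411 to 17059 FPKM in the shoot groups. The 6 root markers summed to 1434 and 980 FPKM in ethylene and air in *cbp20* roots, and to 1116 and 818 FPKM in Col-0 roots. Most of each sum was *CASP1*, with 1063 and 805 FPKM in *cbp20* roots and 775 and 638 FPKM in Col-0 roots. *PIN2* was lower in *cbp20* roots in both gases (27.8 and 23.8 FPKM, against 30.4 and 31.4 FPKM). *LRX1* was lower there in ethylene and *MYB36* in air, and the other values of the list were higher. In shoots the 6 root markers summed to 321 and 243 FPKM in *cbp20*, and to 289 and 222 FPKM in Col-0. Again most of each sum was *CASP1*, with 276 and 203 FPKM in *cbp20* and 238 and 183 FPKM in Col-0. *PIN2* and *EXPA7* were lower in *cbp20* shoots in both gases and *MYB36* in ethylene. The 5 epidermal markers summed to 14.4 and 17.5 FPKM in *cbp20* shoots, and to 22.2 and 20.3 FPKM in Col-0 shoots. None of these markers was at 0. Their part in the differences between genotypes was not tested.

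**Figure D4:**
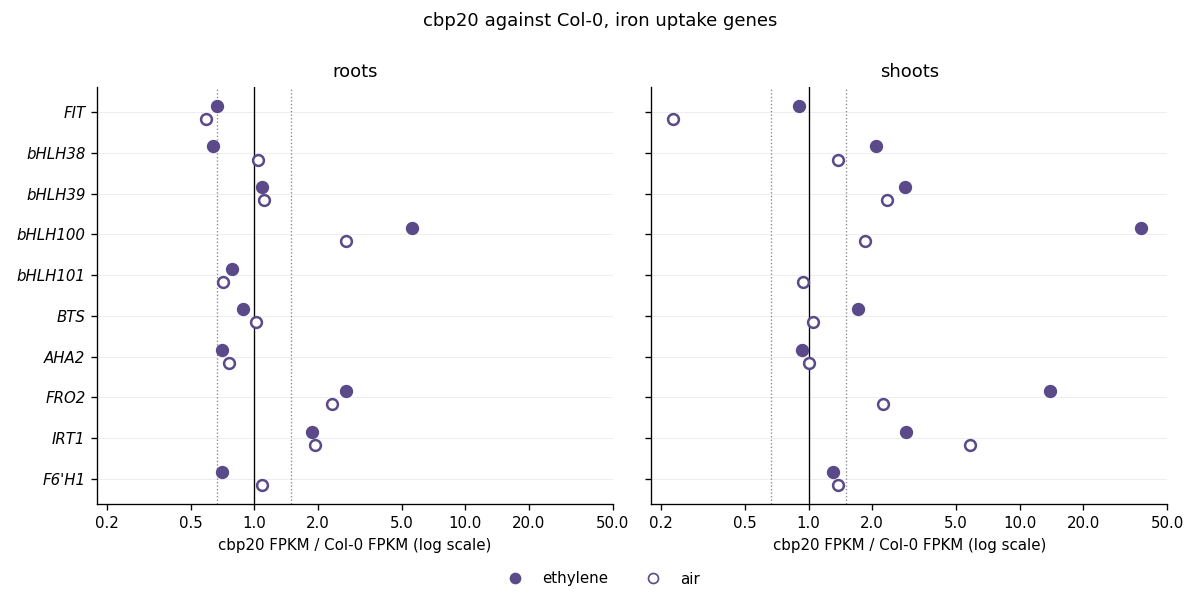
Ratio of *cbp20* FPKM to Col-0 FPKM on a log axis for each gene in roots (left) and shoots (right), filled points for ethylene and open points for air, with dotted lines at 1.5-fold in either direction. *bHLH100*, *FRO2* and *IRT1* lay right of the upper line in both gases and both tissues, the shoot points of *bHLH100* and *FRO2* in ethylene through Col-0 values under 0.1 FPKM, and *FIT* lay left of 1 in all 4 pairs.

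Other genes of iron nutrition were taken from 5 lists of 49 genes in all, covering other regulators, root acquisition, coumarins, distribution within the plant and storage. The 49 genes gave 46 rows of their own. In *cbp20* roots 6 of the 39 rows at or above the minimum were higher and 6 lower in ethylene, against 13.2% and 14.5% of all loci. In Col-0 roots 6 of 39 were higher and 7 lower, 1 of these (*VIT1*) through an ethylene value next to 0, against 15.2% and 15.0%. In *cbp20* shoots 6 of 40 were higher and 13 lower, and in Col-0 shoots 5 of 39 were higher and 10 lower, against 15.0% and 20.6% of all loci in each. Over both genotypes 4 of 38 rows were higher and 3 lower in roots, against 6.44% and 6.81%, and 2 of 38 were higher and 7 lower in shoots, against 5.85% and 11.1%. Most of these counts lay near the background. The median log2 ratio of the rows was -0.04 in *cbp20* roots, 0.04 in Col-0 roots, -0.09 in *cbp20* shoots and -0.18 in Col-0 shoots.

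Of the root acquisition genes, *FRO3*, a reductase of the mitochondrion, and *AHA7*, a second proton pump, were higher in ethylene in the roots of both genotypes. *FRO3* had 99.96 FPKM in ethylene and 44.1 FPKM in air in *cbp20* roots, and 91.0 and 35.0 FPKM in Col-0 roots. *AHA7* had 62.2 FPKM in ethylene and 33.6 FPKM in air in *cbp20* roots, and 40.0 and 18.0 FPKM in Col-0 roots. *FRO3* and *AHA7* thus stood opposite to *FRO2*, and above *AHA2*, in their ratios of ethylene to air. *F6'H2*, the relative of *F6'H1*, had 8.93 FPKM in ethylene and 3.24 FPKM in air in *cbp20* roots, and 17.7 and 3.81 FPKM in Col-0 roots.

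Genes that move iron within the plant differed in direction. *OPT3*, a phloem transporter, was higher in ethylene in the roots of both genotypes (log2 ratios of 1.09 in *cbp20* and 0.78 in Col-0). *NAS1* and *NAS4*, nicotianamine synthases, were lower there, *NAS1* with log2 ratios of -1.57 and -0.95 in *cbp20* and Col-0 and *NAS4* with -0.75 and -0.82. The joined row of the ferritin gene *FER2* and AT3G11040 was lower too, with -0.83 and -0.86. *NAS1* was also lower in ethylene in the shoots of both genotypes, with 4.83 FPKM in ethylene and 12.1 FPKM in air in *cbp20* and 9.57 and 29.7 FPKM in Col-0.

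In shoots the transporter genes *IREG2*, *MTPA2*, *COPT2* and *ABCG37* were lower in ethylene in both genotypes. *IREG2* and *MTPA2* load metals into the vacuole, *COPT2* carries copper, and *ABCG37* exports coumarins. Their log2 ratios in *cbp20* and Col-0 were -0.80 and -1.95 for *IREG2*, -1.48 and -0.60 for *MTPA2*, -0.63 and -0.83 for *COPT2*, and -0.63 and -1.05 for *ABCG37*. AT1G74770 (-1.37 and -1.26) and the vacuolar iron transporter gene *VIT1* (-2.91 and -2.91) were lower as well. Apart from *ABCG37*, all of these genes were under 10 FPKM in every shoot group. *IREG2* in Col-0 and *VIT1* in both genotypes were under 1 FPKM in ethylene. Of all loci with a mean below 3 FPKM, 37.3% were lower in the shoots of each genotype. From 3 to 10 FPKM the shares were 24.2% in *cbp20* and 23.9% in Col-0. *NRAMP1*, a manganese and iron transporter, was higher, with 118 FPKM in ethylene and 66.0 FPKM in air in *cbp20* shoots and 123 and 72.7 FPKM in Col-0 shoots. *MYB10* was also higher in shoots of both genotypes, but its values ran between 0.562 and 184 FPKM over the 8 groups and had opposite directions in the roots of *cbp20* and Col-0.

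Between the genotypes, 8 of 40 rows of these lists were higher in *cbp20* roots by at least 1.5-fold in both gases and 2 were lower, against 7.39% and 4.84% of all loci. Of the 8, *MYB72* counted through a Col-0 ethylene value next to 0, beside 0.442 FPKM in *cbp20*, so that no ratio is given for it. In shoots 6 of 39 were higher and 2 lower, against 5.93% and 6.82%. The root rows that were higher, named here after their values were seen, included the ferritin genes *FER1*, at 1.96-fold in ethylene and 2.29-fold in air, and *FER4*, at 1.75-fold and 2.10-fold, and the joined row of *FER2*, at 1.79-fold and 1.75-fold. The ferritin gene *FER3* did not count as higher. Also higher in roots were *bHLH34* (1.54-fold and 1.61-fold), *AHA7* (1.55-fold and 1.87-fold) and AT3G58060 (1.53-fold and 2.33-fold). In *cbp20* shoots *bHLH34* (2.39-fold and 3.00-fold) and *AHA7* (2.10-fold and 2.26-fold) were higher as well. AT1G47400, of the list of regulators, was lower in *cbp20* roots, at 0.593 and 0.519 times the Col-0 level. *YSL3*, a transporter of iron bound to nicotianamine, was higher in *cbp20* in both tissues, by 3.22-fold and 2.51-fold in roots and 3.88-fold and 3.63-fold in shoots. *NAS1* was lower in *cbp20* in both tissues, at 0.371 and 0.568 times the Col-0 level in roots and 0.505 and 0.408 times in shoots. The remaining shoot rows that counted were AT1G74770, *IREG2* and *NAS4*, higher in *cbp20*, and *YSL1*, lower. *IREG2* and *NAS4* were under 1 FPKM in Col-0 shoots in ethylene (0.661 and 0.573 FPKM).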

How the data were processed

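The members and gene lists were chosen with earlier results of these data known. Poly(A) RNA was sequenced from directional libraries. The authors aligned reads to TAIR10 with TopHat2 2.0.9 and ran Cuffdiff 2.2.1 (tools and build per the submitters' processing notes) once per tissue and genotype, and deposited 4 tables with 1 FPKM value per group of 2 libraries. The tables' columns of test status, log2 fold change and unadjusted p-value hold the authors' own comparison and were not used.

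Of 35814 loci per table, 31133 (86.9%) were used, after removal of 1729 without a gene name and 2952 whose name is repeated at other loci. Joined loci were kept. Ratios were taken from the FPKM as deposited, with no pseudocount, where both values were above 0, however small. All 10 members are named, and other iron genes where at least 1.5-fold apart in the same direction in both genotypes of a tissue; genes named for a difference between genotypes were chosen after their values were seen. A symbol that the annotation does not pair with its identifier is replaced by that identifier. The arithmetic of the calls was checked on simulated data with set ratios and no noise, with pandas 2.3.3 and numpy 2.4.6 in Python 3.11.15. That check says nothing of how often a call is false. Promoters, gene models and symbols came from RefSeq on TAIR10.1, whose chromosome lengths hold all loci of the tables; alignments used Biopython 1.88. Alternatives were another call rule, another minimum, pseudocounts, centring or scaling, and joined loci left out.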

Additional observations from a re-analysis of the deposited data

Results flagged for a closer look

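*bHLH39* stood out because its 2 root ratios and its 2 shoot ratios lay on opposite sides of 0. The log2 ratio of ethylene to air was 0.14 in *cbp20* roots and 0.17 in Col-0 roots, and -0.28 in *cbp20* shoots and -0.56 in Col-0 shoots. All 4 values were within 1.5-fold, and the difference between the tissues was not tested.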

How the results depend on the processing

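With a rule of 2-fold and at least 0.1 FPKM, the number of members apart between ethylene and air was 0 in *cbp20* roots and 1 in Col-0 roots, against 3 in each as reported, and 5 in Col-0 shoots, against 3. With no minimum it was also 5 in Col-0 shoots, where *FRO2* and *bHLH100*, both under 1 FPKM, then counted. The other 27 counts under an alternative stayed within 1.5 times the reported count. Among single ratios, 318 kept their side of the threshold, 6 no longer passed and 3 newly passed. Another minimum, or leaving out joined loci, cannot move a gene's own ratio, so part of the 318 was fixed in advance. Ratios that such a setting removed are not in this tally. The sign changed in 2 ratios that were within 1.5-fold, both with the groups scaled to 1 median: the log2 ratio of *cbp20* to Col-0 in roots in air was -0.01 in place of 0.06 for *bHLH38* and -0.04 in place of 0.02 for *BTS*. *FRO2* in *cbp20* roots was within 1.5-fold with a pseudocount of 1 FPKM, and with the groups scaled to 1 median *FIT* passed 1.5-fold as lower in *cbp20* roots in ethylene as well as in air (log2 ratio of -0.67 in ethylene). No paired analysis was possible because the tables hold 1 value per group, and for the same reason no library could be left out. With at least 1 FPKM required in both ethylene and air, 2 members were apart in Col-0 shoots, against 3 as reported. *bHLH38*, at 0.572 FPKM in ethylene, then fell under the minimum there. The lowest shoot values limit what can be said of *FRO2* and *bHLH100* in shoots, and of *bHLH38* in Col-0 shoots.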
